A study of Mus musculus with 12 samples.

Results

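ATF4 and 9 of its best known stress targets are described here across mouse embryonic fibroblasts in which the NRF2 pathway was set to different levels. The genes, chosen by name, are Atf4, Atf5, Atf3, Ddit3, Trib3, Asns, Slc7a5, Chac1, Sesn2 and Ddit4. All 10 are listed in both deposited gene tables, which share 20844 genes, and all 10 passed the filter on low counts in every comparison. The main result is that activating NRF2 through either mutant allele was not accompanied by a rise of any member that passed the test, and that 4 members (Atf4, Asns, Ddit3 and Atf3) were lower in the Keap1 mutant cells than in their controls, with calls that changed when single libraries were left out.

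ATF4 is the central transcription factor of the integrated stress response. Kinases that sense amino acid shortage, unfolded protein in the endoplasmic reticulum, haem shortage or double-stranded RNA phosphorylate the initiation factor eIF2, which slows most translation but favours that of the ATF4 messenger, so the RNA measured here does not report the amount of ATF4 protein. With C/EBP partners, ATF4 binds C/EBP-ATF elements and switches on genes for amino acid uptake and synthesis, tRNA charging, glutathione turnover and cell death. In fibroblasts this programme is known for keeping amino acids and glutathione in supply, a task it shares with NRF2.

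RNA from 12 libraries, 3 in each of 4 groups, was sequenced. All cells were fibroblasts from embryos at day 13.5 to 14.5, grown in pyruvate-free DMEM with 10% fetal bovine serum, given adenovirus at a multiplicity of 500 and collected 4 days later. The Nrf2 D29H group (genotype LSL-Nrf2D29H, homozygous) received Cre adenovirus, which switches on the D29H form of NRF2, and the Nrf2 KO group is the same genotype with empty adenovirus, whose title labels the cells as Nrf2 knockout. The Keap1 R554Q group (genotype CA-Keap1R554Q, homozygous) received Cre adenovirus and carries the R554Q form of KEAP1, the adaptor that targets NRF2 for degradation, and the Keap1 WT group is that genotype with empty adenovirus, which leaves KEAP1 functionally wild type. No group had Cre without a mutant allele, so the effects of Cre and of the mutation cannot be told apart. The labels do not say whether replicates came from separate embryos or cultures, so p-values measure the spread between these libraries, which may be technical.

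The libraries held 14963004 to 23818477 counted reads, the fewest in Nrf2 KO replicate 3. Nfe2l2, the gene of NRF2, had 49.6 to 57.1 CPM (read counts scaled to the size of the library) in the D29H libraries and 40.2 to 46.5 CPM in the libraries labelled knockout, a level like the 41.7 to 44.2 CPM of Keap1 wild type; counts per gene do not separate a silenced allele from an active one. The allele effect was checked on 6 NRF2 target genes, of which 6 of 6 were higher in D29H than in knockout cells and 6 of 6 higher in R554Q than in wild-type cells, while 6 of 6 were lower in knockout than in Keap1 wild-type cells; Nqo1, a quinone reductase, had 7.65 to 10.8 CPM in the knockout and 108 to 134 CPM in the D29H libraries. All 8 fibroblast markers were found, with summed levels of 16900 to 17640 CPM in the D29H libraries, 19180 to 20750 CPM in knockout, 14620 to 15900 CPM in R554Q and 14790 to 17120 CPM in wild type; every D29H library was below every knockout library. Within that list Col1a1, Vim and Col3a1 were lower in D29H without overlap, Pdgfra was higher without overlap (48.7 to 55.1 against 39.2 to 43.0 CPM), and the other 4 overlapped. Of the macrophage markers 6 of 7 were found (Adgre1 was not in both tables), and their sum was 60.0 to 73.5 CPM in the R554Q libraries against 85.6 to 95.1 CPM in the wild-type ones, 134.5 to 147.9 CPM in D29H and 102.7 to 143.2 CPM in knockout. The skeletal muscle sum (3 of 4 markers found, Myod1 not in both tables) was 9.61 to 10.7 CPM in R554Q against 12.2 to 14.7 CPM in wild type, and 12.03 to 14.84 CPM in D29H against 14.1 to 16.8 CPM in knockout. The neural sum was 85.4 to 92.5 CPM in R554Q against 77.4 to 82.7 CPM in wild type, and 43.3 to 57.6 CPM in D29H against 51.5 to 56.5 CPM in knockout. Macrophage and muscle sums were thus lower, and the neural sum higher, in every R554Q library than in every wild-type one. Single genes carried these sums: Lyz2 was the macrophage marker without overlap (43.0 to 52.8 against 66.0 to 75.5 CPM) and the other 5 overlapped, Des made up nearly all of the muscle sum (9.07 to 10.2 against 11.9 to 14.5 CPM), and of the neural list Tubb3 and Sox2 were higher without overlap while Stmn2 overlapped. The other marker sums were at most 22.1 CPM for endothelial, 7.25 CPM for epithelial and 0.351 CPM for erythroid cells, and overlapped between each mutant group and its control.

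The C/EBP-ATF element, whose core was searched as TGATGNAA on both strands, links these genes to ATF4, so the promoters that hold it are shown where the match lies. RefSeq entries (GRCm38.p6, 250 bases before to 50 after each start) exist for 9 of the 10 members, all but Slc7a5. The core occurred in the promoters of 4 members, Asns, Chac1, Atf3 and Trib3, and in 3.97% of all 32851 promoters of that length. The match lay 23 bases upstream of the start in Asns, 193 upstream in Chac1, 110 upstream in Atf3 and 14 bases after the start in Trib3. Each sequence runs 5′ to 3′ on the gene's own strand with the match in capitals; the 250 upstream bases are given, except for Trib3, where 30 bases around the match are given. The Asns match reads on the gene's strand and the other 3 read on the opposite strand. RefSeq starts differ from the ends of the gene spans given below, so that the Asns match lies inside its gene's span and the Trib3 match just outside.
Asns (chr6:7693210-7693459, minus strand): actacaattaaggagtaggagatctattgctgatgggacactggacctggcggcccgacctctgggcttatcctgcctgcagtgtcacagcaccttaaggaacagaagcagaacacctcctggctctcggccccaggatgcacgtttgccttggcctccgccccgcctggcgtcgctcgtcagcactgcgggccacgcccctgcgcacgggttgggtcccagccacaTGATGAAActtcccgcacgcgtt
Chac1 (chr2:119350992-119351241, plus strand): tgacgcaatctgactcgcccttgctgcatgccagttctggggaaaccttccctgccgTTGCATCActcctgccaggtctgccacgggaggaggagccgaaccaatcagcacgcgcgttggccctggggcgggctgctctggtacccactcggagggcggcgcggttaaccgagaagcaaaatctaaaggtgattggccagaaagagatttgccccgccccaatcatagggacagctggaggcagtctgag
Atf3 (chr1:191183334-191183583, minus strand): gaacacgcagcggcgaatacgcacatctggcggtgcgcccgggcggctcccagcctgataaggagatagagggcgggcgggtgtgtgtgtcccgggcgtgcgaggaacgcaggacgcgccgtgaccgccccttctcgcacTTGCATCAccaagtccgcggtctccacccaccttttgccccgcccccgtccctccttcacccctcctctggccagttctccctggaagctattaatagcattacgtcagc
Trib3 (chr2:152344028-152344057, minus strand): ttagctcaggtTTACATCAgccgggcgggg
The core of the antioxidant response element, the NRF2 site, was searched as TGACNNNGC on both strands and occurred in 2 member promoters and in 12.4% of all promoters. Sesn2 held TGACAGAGC, 36 bases upstream of its start on the gene's strand, and Asns held GCAGTGTCA, 172 bases upstream, on the opposite strand. The cAMP response element TGACGTCA begins with the same TGAC as the antioxidant core. It was found in none of the 10 promoter entries of the 9 members searched and in 1.79% of all promoters. A match describes letters only and shows no binding.

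Per length, Atf4 itself was the most abundant of the 10 messengers. Its mean over the 12 libraries was 146.1 FPKM (the authors' length- and depth-scaled value), above 97.7% of the 20844 genes. Atf5 followed at 77.5 FPKM, then Ddit4 at 67.7, Ddit3 at 56.2, Asns at 42.4, Slc7a5 at 41.3, Sesn2 at 29.3, Chac1 at 14.3 and Trib3 at 13.5 FPKM. Atf3 was lowest at 2.59 FPKM and rested on 55 to 147 reads per library, so that counting error alone was 8.25% to 13.5% of its value. For Atf4, with 4254 to 6648 reads, counting error was 1.23% to 1.53%. Across the length-scaled levels the distance from the first member to the last was much wider than any difference between groups: in CPM, the highest group mean of a member was 1.20 times (Ddit4) to 1.71 times (Slc7a5) its lowest.

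**Figure D1:**
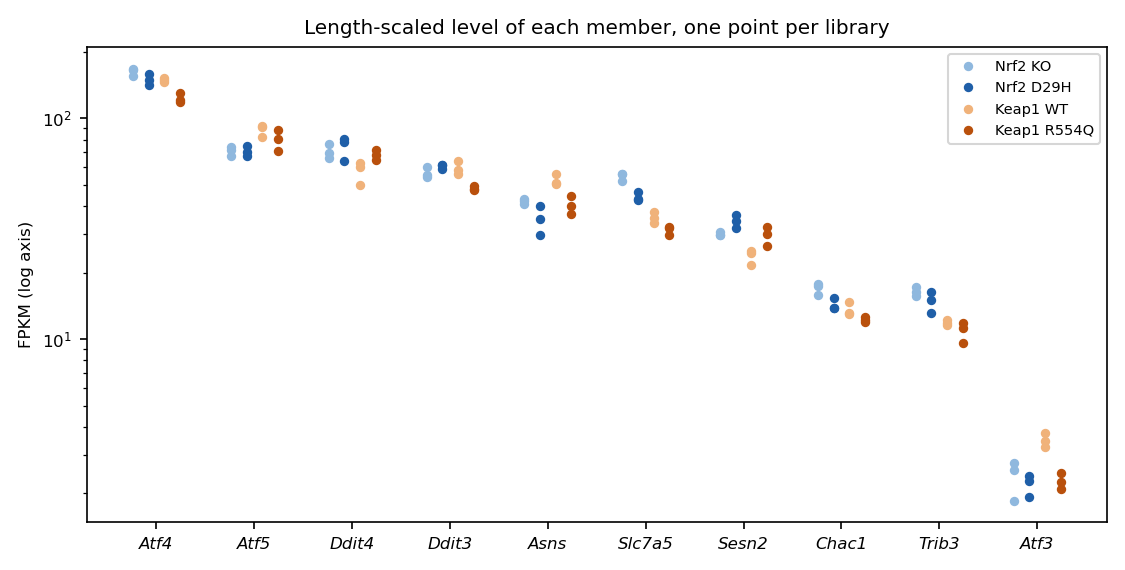
Length-scaled level (FPKM, log axis) of each member, with 1 point per library and colours for the 4 groups, ordered by the mean over all 12 libraries. Atf4 lies on top at a mean of 146.1 FPKM and Atf3 at the bottom at 2.59 FPKM, and the groups of a member lie close together.

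Among the transcription factors, Atf4 was lower in R554Q than in wild-type Keap1 cells. Atf4 (ENSMUSG00000042406, chr15:80255184-80257540, plus strand, build mm10) had 227, 204 and 211 CPM in the R554Q libraries and 266, 261 and 275 CPM in the wild-type ones. In the Nrf2 cultures it had 269.6, 232 and 247 CPM with D29H and 285, 267 and 278 CPM in the knockout. The 3 R554Q libraries were the lowest of all 12, below every wild-type library, whereas the D29H and knockout libraries overlapped because D29H replicate 1 lay above knockout replicate 2. Atf4 fell in R554Q with a log2 fold change of -0.31 (adjusted p = 0.0244, SE 0.078), from 267 ± 7.27 to 214 ± 11.8 CPM (SD, n = 3). The call was kept in 1 of the 6 fits that each left out a library (adjusted p 0.00570 to 0.0979), the one without R554Q replicate 3. Of 8 other settings 7 kept it, and the replicate number as a block ended it. In D29H against knockout its log2 fold change was -0.15 (adjusted p = 0.403, SE 0.11).

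**Figure D2:**
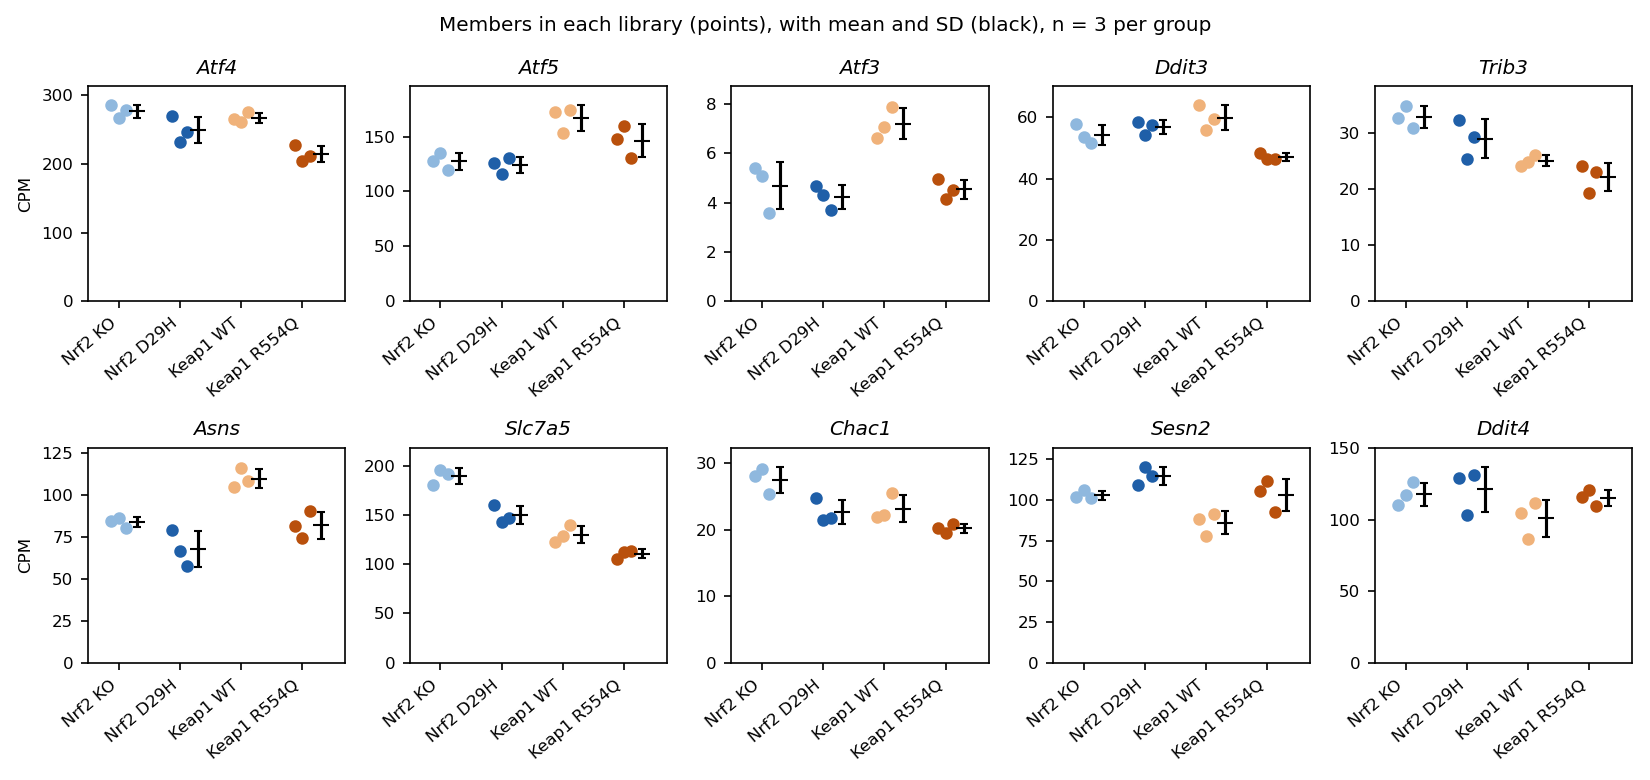
CPM of each member in each library, scaled over all 12 libraries, with points for libraries and black bars for the group mean and SD (n = 3). The Keap1 R554Q points lie below all Keap1 WT points for Atf4, Atf3, Ddit3, Asns, Slc7a5 and Chac1, and above them for Sesn2. They also lie below for Trib3 on this scale, by a margin so narrow that scaling over the 6 Keap1 libraries makes those groups overlap.

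Ddit3 encodes CHOP, a factor of the same bZIP class that ATF4 induces under prolonged stress and that favours cell death. Ddit3 (ENSMUSG00000025408, chr10:127290774-127296288, plus strand) had 48.4, 46.4 and 46.3 CPM in R554Q cells and 64.1, 56.0 and 59.3 CPM in wild-type cells. In D29H it had 58.4, 54.1 and 57.6 CPM and in the knockout 57.8, 53.5 and 51.6 CPM. The R554Q values were below all 9 others, and D29H and knockout overlapped. Ddit3 fell in R554Q with a log2 fold change of -0.34 (adjusted p = 0.0219, SE 0.082), while D29H against knockout gave 0.06 (adjusted p = 0.751, SE 0.097). The R554Q call was kept in 2 of the 6 fits that each left out a library (adjusted p 0.00640 to 0.123), those without R554Q replicate 3 or wild-type replicate 2. It was lost with offsets for gene length and GC content, where the value was -0.17 (adjusted p = 0.196), and with the replicate number as a block (adjusted p = 0.0544). Ddit3 overlaps Mars, the methionyl-tRNA synthetase gene, and Gm4189 on the opposite strand. It also overlaps another protein-coding entry of the same name on its own strand, and how reads shared with that entry were counted is not given. Mars held 2456 to 3883 reads per library against 789 to 1352 for Ddit3; whether counting used strand is not given in the sources used here, so reads of the shared stretch cannot be told apart.

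Atf3, an ATF4-induced factor that also answers growth and damage signals, was the member with the largest fall in R554Q but also the thinnest counts. Atf3 (ENSMUSG00000026628, chr1:191170296-191183340, minus strand) had 4.96, 4.17 and 4.50 CPM in R554Q cells and 6.64, 7.09 and 7.88 CPM in wild-type libraries. The Nrf2 cultures gave 4.67, 4.31 and 3.71 CPM with D29H and 5.41, 5.07 and 3.60 CPM in the knockout. The wild-type Keap1 libraries stood above all 9 others, and the remaining 3 groups overlapped. Atf3 fell with a log2 fold change of -0.66 (adjusted p = 0.0170, SE 0.15) in R554Q, and its value in D29H against knockout was -0.17 (adjusted p = 0.614, SE 0.19). The R554Q call was kept in 2 of 6 fits with a library left out (adjusted p 0.00543 to 0.0778), those without R554Q replicate 3 or wild-type replicate 1.

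Atf5 and Trib3 did not pass the test in either allele comparison. Atf5, a relative of ATF4 that is translated under the same control (ENSMUSG00000038539, chr7:44812257-44816658, minus strand, overlapping Nup62 and Il4i1 on the other strand), had 148, 160.1 and 131 CPM in R554Q cells and 172, 154 and 175 CPM in wild type. With D29H it had 126, 116 and 131 CPM and in the knockout 128, 135 and 119.6 CPM. Each mutant group overlapped its control. Nup62 held 1029 to 1553 reads per library against 1828 to 3640 for Atf5, and reads of a stretch they share cannot be told apart, as for Ddit3. Trib3, a pseudokinase that ATF4 induces and that restrains ATF4 in turn (ENSMUSG00000032715, chr2:152337422-152344032, minus strand), had 24.1, 19.4 and 23.0 CPM in R554Q cells, 24.2, 24.9 and 26.1 CPM in wild type, 32.4, 25.4 and 29.3 CPM in D29H and 32.8, 34.8 and 30.9 CPM in the knockout. For Trib3, R554Q replicate 1 was level with wild-type replicate 1, and scaling over the 6 libraries of the comparison instead of all 12 made those groups overlap; D29H and knockout overlapped. The log2 fold changes in R554Q against wild type were -0.18 (adjusted p = 0.210) for Atf5 and -0.17 (adjusted p = 0.321) for Trib3, and in D29H against knockout -0.04 (adjusted p = 0.845) and -0.18 (adjusted p = 0.321). With offsets for gene length and GC content Atf5 was called in R554Q (-0.35, adjusted p = 0.00316).

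Of the amino acid genes, Asns was lower with either mutant allele in all libraries, and the difference passed the test in R554Q. Asns, asparagine synthetase, makes asparagine from aspartate and glutamine and carries the element shown above just upstream of its RefSeq start (ENSMUSG00000029752, chr6:7675169-7693254, minus strand). It had 81.4, 74.3 and 90.3 CPM in R554Q cells and 105, 116 and 108 CPM in wild type. The Nrf2 cultures had 79.1, 66.9 and 57.6 CPM with D29H and 84.3, 86.6 and 80.6 CPM in the knockout. Neither mutant group overlapped its control, and the D29H libraries spread most, with D29H replicate 3 the lowest of all 12. Asns fell in R554Q with a log2 fold change of -0.41 (adjusted p = 0.00920, SE 0.086), and the D29H comparison gave -0.31 (adjusted p = 0.0947, SE 0.11), which missed the threshold. The R554Q call was kept in 4 of 6 fits with a library left out and lost without R554Q replicate 1 (adjusted p = 0.0628) or wild-type replicate 2 (0.0603).

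Slc7a5, the LAT1 subunit that imports leucine and other large neutral amino acids, separated all 4 groups. Slc7a5 (ENSMUSG00000040010, chr8:121881150-121907694, minus strand, overlapping Gm20388 on the other strand) had 179.9, 196 and 192 CPM in the knockout and 160.4, 143 and 147 CPM with D29H. In the Keap1 cultures it had 122, 128 and 139.7 CPM in wild type and 105, 112 and 114 CPM in R554Q. No library of one group lay within the range of another, in the order knockout, D29H, wild type, R554Q. The log2 fold change was -0.34 (adjusted p = 0.0551, SE 0.1) in D29H against knockout and -0.23 (adjusted p = 0.0916, SE 0.08) in R554Q against wild type, neither of which passed the test. In the authors' deposited table the D29H value was -0.32 with an adjusted p of 0.0103.

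Chac1, an enzyme that breaks down glutathione and is among the most ATF4-dependent genes, was lower in both mutant groups without passing the test. Chac1 (ENSMUSG00000027313, chr2:119351229-119354381, plus strand) had 24.8, 21.5 and 21.8 CPM with D29H and 28.1, 29.1 and 25.4 CPM in the knockout. In the Keap1 cultures it had 20.2, 19.5 and 20.9 CPM in R554Q cells and 21.9, 22.2 and 25.5 CPM in wild type. Neither mutant group overlapped its control. The log2 fold changes were -0.28 (adjusted p = 0.123) for D29H and -0.19 (adjusted p = 0.248) for R554Q.

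Sesn2 and Ddit4, which restrain the growth kinase mTORC1, passed the test in neither allele comparison. Sesn2, sestrin 2, a leucine sensor that is also known as an NRF2 and p53 target (ENSMUSG00000028893, chr4:132492032-132510501, minus strand, overlapping Gm12981, which held 12 to 53 reads per library), had 109, 120.2 and 114 CPM with D29H and 102, 106 and 101 CPM in the knockout. It had 105, 111 and 92.4 CPM in R554Q cells and 88.2, 77.8 and 91.6 CPM in wild type. Sesn2 was the member whose libraries were higher without overlap with both mutant alleles. Its log2 fold changes, 0.15 (adjusted p = 0.355) and 0.27 (adjusted p = 0.0778), did not pass the test, and with offsets for gene length and GC content the R554Q value was 0.08 (adjusted p = 0.521). Ddit4, known as REDD1 (ENSMUSG00000020108, chr10:59949675-59951770, minus strand), had 129, 103 and 131 CPM with D29H, 110.2, 118 and 126 CPM in the knockout, 116, 121 and 109.7 CPM in R554Q cells and 105, 86.8 and 112 CPM in wild type. Its groups overlapped in both comparisons, with log2 fold changes of 0.04 (adjusted p = 0.864) and 0.20 (adjusted p = 0.192), and the D29H value was negative in 3 of the 6 fits that each left out a library.

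In D29H against knockout, then, 0 of 10 members passed the test of edgeR in either direction, where 3.47% of 14370 genes were called higher and 1.28% lower. The members with an unadjusted edgeR p under 0.05 were Asns (0.00909), Chac1 (0.0154) and Slc7a5 (0.00292). The share of all genes at that cut is not given here, so this is no result about the members as a set. DESeq2 called 1 member, Slc7a5 (adjusted p = 0.0149), where it called 442 genes higher and 279 lower over all genes. Without overlap 1 member was higher, Sesn2, where 12.4% of all genes were, and 3 were lower (Asns, Chac1, Slc7a5), where 13% of all genes were. The median log2 fold change of the members was -0.16, beside 0.000414 over all genes tested, and it ranged from -0.23 without D29H replicate 1 to -0.091 without D29H replicate 2. The fibroblast marker sum was also lower in all 3 D29H libraries than in all 3 knockout libraries, though Pdgfra of that list was higher, and its part in these values was not tested. The spread of the D29H libraries bears on them: D29H replicate 1 held the highest D29H value of 7 members and D29H replicate 2 the lowest of 7. Without D29H replicate 1, 3 members were called lower, Asns (-0.43, adjusted p = 0.00993), Chac1 (-0.35, adjusted p = 0.0378) and Slc7a5 (-0.39, adjusted p = 0.0156), while all genes called went from 682 to 2192; without any other single library the count was 0, and all genes called numbered 82 (without D29H replicate 3) to 913 (without knockout replicate 1).

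In R554Q against wild type 0 members were called higher and 4 lower, where 3.77% of 14128 genes were called higher and 2.4% lower. Without overlap, on CPM scaled over the 6 libraries compared, 6 members were lower (Asns, Atf3, Atf4, Chac1, Ddit3, Slc7a5) and 1 was higher (Sesn2), where 13.5% and 14% of all genes were. The median of the members was -0.21, beside -0.000989 over all genes. Fewer cells of a type and less RNA per cell cannot be told apart in such bulk libraries, and 3 marker sums moved with these values: those of macrophages and skeletal muscle were lower, and that of neural cells higher, in all 3 R554Q libraries than in the wild-type ones, carried mainly by Lyz2, Des and Tubb3. Their part in the result was not tested. In the authors' deposited table the same 4 members had an adjusted p under 0.05, 0.000447 for Asns, 0.00129 for Atf4, 0.00616 for Ddit3 and 0.0148 for Atf3.

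The 4 calls depended on the libraries. The number of members called was 0 without R554Q replicate 1, 1 without R554Q replicate 2 (Asns), 1 without wild-type replicate 2 (Ddit3), 1 without wild-type replicate 3 (Asns), 2 without wild-type replicate 1 (Asns, Atf3) and 7 without R554Q replicate 3. The calls over all genes moved with them: of 872 with all libraries there were 238 without R554Q replicate 1, 410 without R554Q replicate 2, 2872 without R554Q replicate 3, 392 without wild-type replicate 1, 241 without wild-type replicate 2 and 430 without wild-type replicate 3. In the fit without R554Q replicate 3 Atf4, Asns, Ddit3, Atf3 and Slc7a5 were lower and Sesn2 (0.35, adjusted p = 0.00206) and Ddit4 (0.24, adjusted p = 0.0434) higher. Asns kept its call in 4 of the 6 fits, Ddit3 and Atf3 in 2 and Atf4 in 1, and no sign changed; the log2 fold change of Asns ranged from -0.48 to -0.35. Offsets for GC content and gene length ended the Ddit3 call and added Atf5 and Slc7a5 (-0.36, adjusted p = 0.00734). The replicate number as a block ended the Atf4 and Ddit3 calls.

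**Figure D3:**
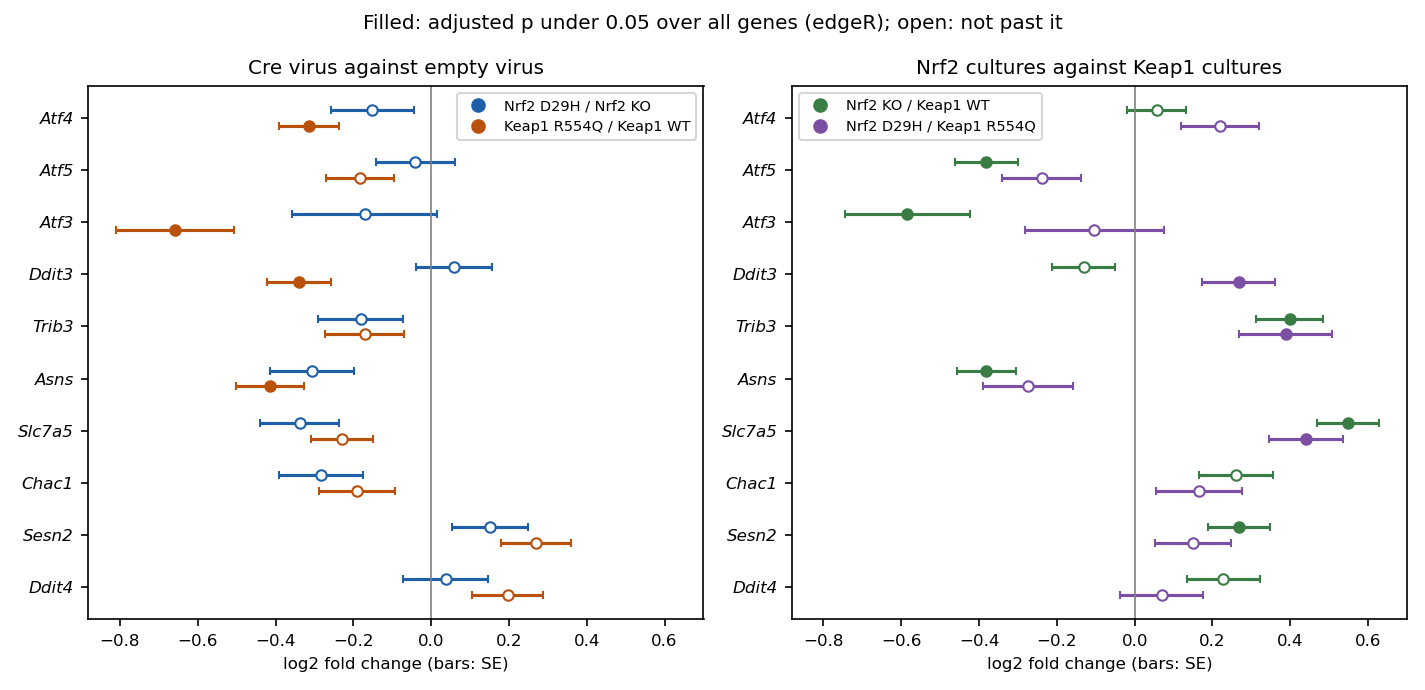
Log2 fold change of each member with its SE, for each mutant allele against its own control (left) and for the Nrf2 cultures against the Keap1 cultures under the same virus (right); filled points passed an adjusted p of 0.05 over all genes. On the left 4 of the R554Q points and none of the D29H points are filled; on the right Trib3 and Slc7a5 are filled in both comparisons.

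Whether the alleles acted differently on a member was tested by subtracting the R554Q effect from the D29H effect. No member passed, where 0.00676% of 14794 genes were called higher and 0.0203% lower, so the presence of calls in R554Q alone does not show a difference between the alleles. The member with the lowest p was Ddit3, 0.41 (SE 0.12, unadjusted p = 0.00222, adjusted p = 0.233), followed in p by Atf3, 0.49 (SE 0.23, unadjusted p = 0.0461, adjusted p = 0.435). These 2 were the members with an unadjusted p under 0.05, a cut for which the share of all genes is not given here. DESeq2 called 0 members, where it called 65 genes over all genes. The median of the 10 was 0.06 beside 0.00611 over all genes. That median was -0.068 without D29H replicate 1 and just below 0 without R554Q replicate 2. For Asns the difference was 0.12 (SE 0.14) and for Slc7a5 -0.10 (SE 0.12), each within 1 SE of 0.

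The members also differed between the cultures, in which genotype and culture cannot be told apart. Between the empty-virus groups, 3 members were higher in the knockout than in Keap1 wild type, where 11.7% of 14146 genes were called higher, and 3 were lower, where 11.4% were. The macrophage and fibroblast marker sums given above were also higher in every knockout library than in every wild-type one. The neural and epithelial sums were lower (epithelial 3.27 to 4.32 against 5.57 to 7.25 CPM). Against their lists, the fibroblast markers Thy1 and Dcn were lower and the neural marker Sox2 was higher in the knockout, without overlap. The part of these sums in the member values was not tested. Slc7a5 was higher by 0.55 (adjusted p = 0.000117, SE 0.08) on the log2 scale, Trib3 by 0.40 (adjusted p = 0.00316, SE 0.086) and Sesn2 by 0.27 (adjusted p = 0.0233, SE 0.08). Atf3 was lower at -0.58 (adjusted p = 0.0149, SE 0.16), Asns at -0.38 (adjusted p = 0.00178, SE 0.076) and Atf5 at -0.38 (adjusted p = 0.00298, SE 0.082). Atf4 itself had a log2 fold change of 0.06 (adjusted p = 0.638). The Sesn2 call was lost without knockout replicate 2 (adjusted p = 0.110), wild-type replicate 1 (0.0662) or wild-type replicate 2 (0.114) and the Atf3 call without wild-type replicate 3 (0.0681), whereas Chac1 was called without knockout replicate 3 (0.00545) or wild-type replicate 3 (0.0441). Of 8 other settings, Chac1 and Ddit4 were each called in 1, and the member count was 6 to 8. All genes called numbered 3271, and 2154 to 4453 when single libraries were left out.

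Between the Cre-virus groups, 3 members were higher in D29H than in R554Q, where 11.6% of 14403 genes were called higher, and 0 were lower, where 11.7% were. The macrophage, fibroblast and muscle marker sums were higher in every D29H library than in every R554Q one. The neural and epithelial sums were lower (epithelial 2.07 to 3.53 against 5.26 to 5.96 CPM). The macrophage sums were 134.5 to 147.9 against 60.0 to 73.5 CPM. Against their list, the fibroblast markers Vim and Thy1 were lower in D29H without overlap. Sox2 of the neural and Krt8 of the epithelial list overlapped. The part of these sums was not tested. The members called were Slc7a5 at 0.44 (adjusted p = 0.00288, SE 0.096), Trib3 at 0.39 (adjusted p = 0.0257, SE 0.12) and Ddit3 at 0.27 (adjusted p = 0.0453, SE 0.094). Slc7a5 kept its call whichever of the 6 libraries was left out. Ddit3 lost its call without each of them (adjusted p 0.0513 to 0.141). Trib3 lost it without D29H replicate 1 (0.0830), D29H replicate 3 (0.0674) or R554Q replicate 2 (0.0977). Without D29H replicate 3 the count fell to 1, while all genes called went from 3351 to 2096. Asns was called lower without D29H replicate 1 (-0.41, adjusted p = 0.0101) or R554Q replicate 2 (-0.34, 0.0481), and Atf5 without R554Q replicate 3 (-0.31, 0.0382). With offsets for gene length and GC content Ddit3 was not called (adjusted p = 0.0703), while Atf4 (0.23, 0.0387) and Asns (-0.28, 0.0443) were. These comparisons reuse the libraries of the allele comparisons and are no second sample of them.

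The order of the groups differed from member to member. For Atf4 and Chac1 it was knockout, wild type, D29H and R554Q, and the R554Q libraries were apart from the next group while the other neighbours overlapped. Trib3 ran knockout, D29H, wild type and R554Q. Asns and Atf3 ran wild type, knockout, R554Q and D29H, with the wild-type libraries apart and each later group overlapping the next, although for Asns the knockout and D29H libraries did not overlap. Ddit3 was highest in wild type and lowest in R554Q, with the R554Q libraries apart. Atf5 was highest in wild type and Ddit4 in D29H, and for both every pair of neighbours overlapped. Sesn2 ran D29H, R554Q, knockout and wild type, with the wild-type libraries apart.

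Library by library, the share of members at the top or bottom of their group differed. Wild-type replicate 3 had the highest wild-type value of 8 members and the lowest of 0, and knockout replicate 3, the shallowest library, had the lowest knockout value of 7 and the highest of 1. Knockout replicate 2 held the highest of 6 and the lowest of 1, and knockout replicate 1 the highest of 3 and the lowest of 2. Wild-type replicates 1 and 2 each held the highest of 1 and the lowest of 5. In R554Q, replicates 1, 2 and 3 held the highest of 4, 3 and 3 members and the lowest of 1, 5 and 4. D29H replicates 1, 2 and 3 held the highest of 7, 1 and 2 and the lowest of 1, 7 and 2. Within-group coefficients of variation were 2.72% to 7.51% for Atf4, 3.61% to 15.9% for Asns and 8.72% to 20.5% for Atf3. The genes whose profile over the 12 libraries was most like that of Atf4, by the root mean square difference of log2 CPM after centring among 10585 genes with a mean count of at least 100, were Gtf2f2 (0.0507) and Rpf1 (0.0517), where the Atf4 profile itself had a root mean square of 0.154. For the median profile of the members, with a root mean square of 0.111, Polr1c was nearest (0.0502). These distances share libraries and depth and describe likeness only.

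The wider integrated stress response was followed in 75 further genes in 6 lists. In D29H against knockout 2 of the 74 tested were called higher and 1 lower, beside 3.47% and 1.28% of all genes. The median of the list was -0.14, with negative values for 60 of 74, beside 7173 of 14370 over all genes. As for the members, the fibroblast marker sum was lower in the D29H libraries, and its part was not tested. The calls were Slc43a2, a large neutral amino acid transporter (0.57, adjusted p = 0.0443), Slc6a9, a glycine transporter (0.43, adjusted p = 0.0497), and Cebpd, a C/EBP factor that can pair with ATF4 (-0.39, adjusted p = 0.0400). The count was 16 without D29H replicate 1 and 0 without D29H replicate 2, D29H replicate 3 or knockout replicate 2, where all genes called numbered 2192, 94, 82 and 301.

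In R554Q against wild type 4 of 73 were called higher and 11 lower, beside 3.77% and 2.4% of all genes. The median was -0.07, with negative values for 49 of 73, beside 7080 of 14128 over all genes. Those called higher were Slc7a11, the cystine importer known as a target of both NRF2 and ATF4 (2.35, adjusted p = 2.28e-08), Cebpb (0.91, adjusted p = 0.000115), the stress hormone gene Gdf15 (0.86, adjusted p = 0.000958) and Slc43a2 (0.66, adjusted p = 0.0227). The R554Q libraries had 16.7, 16.2 and 21.7 CPM of Slc7a11 and the wild-type ones 2.84, 4.05 and 3.91 CPM, against 9.85, 10.8 and 9.90 CPM with D29H and 5.07, 4.82 and 10.2 CPM in the knockout, where replicate 3 alone reached the D29H range. Without that library the D29H value of Slc7a11 went from 0.65 (adjusted p = 0.0547) to 1.04 (adjusted p = 2.48e-05). The count was 28 without R554Q replicate 3, 6 without R554Q replicate 1 or wild-type replicate 2, and 9 without R554Q replicate 2 or wild-type replicate 1, in step with the calls over all genes given for the same fits above.

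The genes called lower in R554Q included 5 of the 12 of amino acid and one-carbon synthesis. Psph (-0.58, adjusted p = 0.000543) and Psat1 (-0.45, adjusted p = 0.0101) are steps of serine synthesis, Mthfd2 (-0.41, adjusted p = 0.00470) and Aldh1l2 (-0.44, adjusted p = 0.0201) are mitochondrial folate enzymes, and Cth (-0.48, adjusted p = 0.0495) makes cysteine from cystathionine. Phgdh, the first step of serine synthesis and the most expressed gene of that list per length, had -0.34 (adjusted p = 0.0532) in R554Q and -0.46 (adjusted p = 0.0509) in D29H. The median of this list was -0.24 in R554Q and -0.18 in D29H, where 0 of 12 were called and 12 of 12 were negative. The other 6 genes called lower in R554Q were the cationic amino acid transporter Slc7a1 (-0.32, adjusted p = 0.0269), Eif2s1, which encodes the eIF2 subunit that is phosphorylated (-0.35, adjusted p = 0.0153), the ATF4 partner Cebpg (-0.32, adjusted p = 0.0328), the stress cofactor Nupr1 (-0.40, adjusted p = 0.00623), the aspartyl-tRNA synthetase Dars (-0.36, adjusted p = 0.0344) and Herpud1, a gene of protein disposal at the endoplasmic reticulum (-0.34, adjusted p = 0.0191). Psph, Mthfd2, Nupr1, Slc7a11, Cebpb and Gdf15 kept their calls in all 6 fits that each left out a library, and the other 9 pathway genes called in R554Q kept theirs in 1 to 4 of the 6. Of 8 other settings Cth was called in 2, Dars and Cebpg in 5, Eif2s1 and Slc43a2 in 6, Slc7a1 and Herpud1 in 7, and the rest in all 8. The values nearest 0 there were -0.32 for Cth, -0.18 for Dars and -0.21 for Eif2s1. As for the members, the lower macrophage and muscle and higher neural marker sums of the R554Q libraries stood beside these values, and their part was not tested.

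Of 21 genes of cytosolic tRNA charging and export, 0 were called in D29H against knockout, though 21 of 21 had a negative value (median -0.18), and Dars alone was called in R554Q (median -0.09). The neighbouring ER chaperone arm, controlled mainly by ATF6 and XBP1, had 0 of 10 called in D29H (median -0.26) and 1 lower in R554Q (median -0.23). That gene was Hspa5, the chaperone BiP, at -0.48 (adjusted p = 0.0135), and its D29H value was -0.47 (adjusted p = 0.0528). The R554Q call was kept in 3 of the 6 fits that each left out a library (adjusted p up to 0.0747) and in all 8 other settings. The D29H value was called in 2 of 6 such fits and in 4 of 8 other settings. Immediate early genes, which share induction signals with Atf3, had 0 of 11 called in either comparison, with medians of -0.21 in D29H and 0.00 in R554Q. Over all genes 3.47% were called higher and 1.28% lower in D29H, and 3.77% and 2.4% in R554Q. The marker sums that differed between each mutant group and its control stood beside these values too, and their part was not tested.

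**Figure D4:**
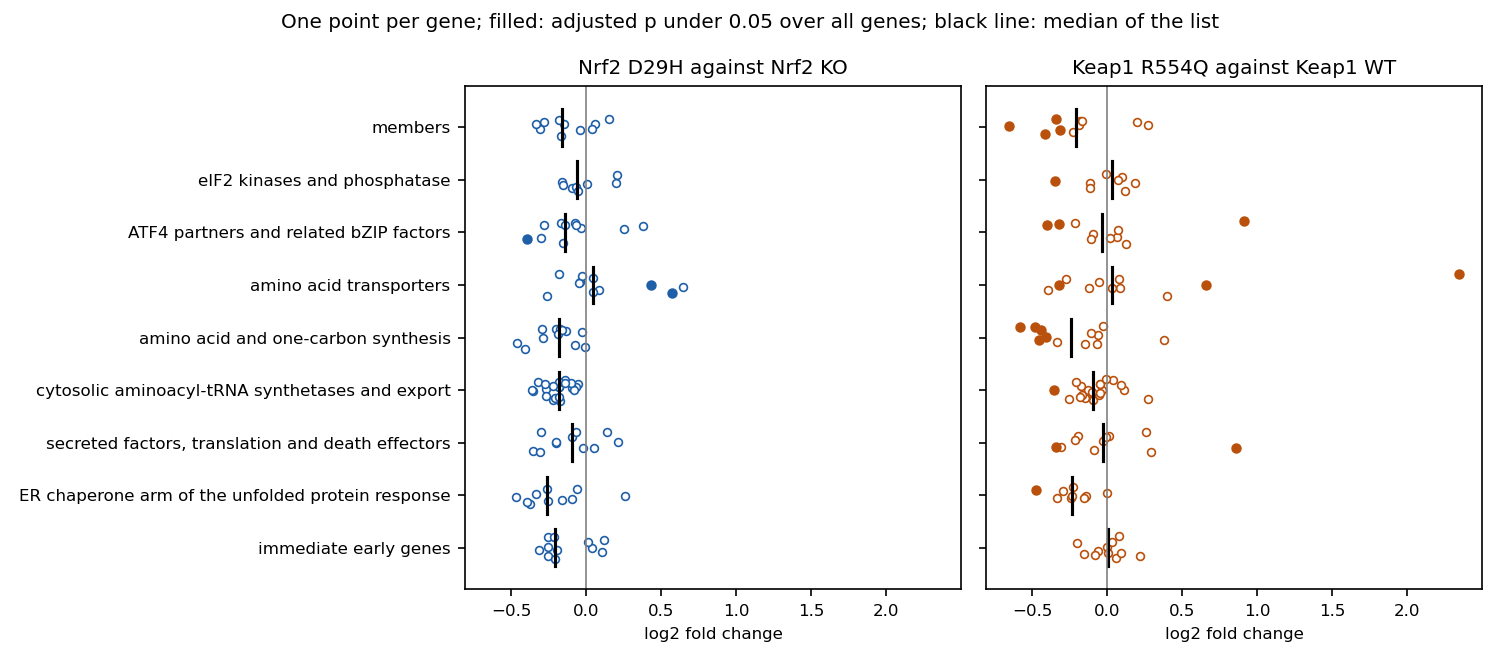
Log2 fold change of every tested gene of the members, the 6 pathway lists and 2 neighbouring lists, with 1 point per gene, filled where the adjusted p over all genes was under 0.05, and a black line at the list median. In Keap1 R554Q against Keap1 WT the filled points of the members and of amino acid and one-carbon synthesis lie left of 0, and Slc7a11 lies far to the right at 2.35.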

How the data were processed

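RNA of 12 libraries was analysed from 2 deposited gene tables. Each table holds the authors' unnormalised count of reads for every gene, per the file headers. The submitters' processing notes name STAR, DESeq2 and the build mm10 without roles or versions; the counting tool, annotation and use of strand are not given in the sources used here. The authors' FPKM, per the file headers, were recomputed from count, gene length and column total to within 5.0e-10%. The deposited tables also give the authors' normalised signal per group, log2 fold changes and p-values with adjusted values; only their log2 fold changes and adjusted p-values are quoted, as theirs. Of the gene identifiers 98.9% were found in GENCODE M21.

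Counts were tested in R 4.3.3 with edgeR 4.0.16 (filterByExpr, TMM, glmQLFit and glmQLFTest, Benjamini-Hochberg over all genes tested, threshold 0.05), each comparison on its own 6 libraries and the difference between the alleles in 1 fit of 12. Standard errors were derived from the log2 fold change and the F statistic. Printed CPM are scaled by TMM over all 12 libraries. The script was tested on simulated data. Counts of replicate pairs differed beyond sampling noise (chi-square over its degrees of freedom 4.77 to 24.5). Alternatives were RLE factors, DESeq2 1.42.0, no filter on low counts or a minimum mean count of 50, a replicate block, offsets for GC content and length (lowess, span 0.3), all 12 libraries in 1 fit, a threshold of 0.01 and leaving out each library. The members and gene lists were chosen with earlier results of these data known. All members are named; a gene of another list is named only where it was called in an allele comparison or in their difference, or was the list's most expressed, and not every such gene of the lists given as counts is named. Genes that overlap a member are also named. Some, but not all, of the marker genes that separate groups or go against their list are named too, chosen after their values were seen. Up to 4 promoters with the C/EBP-ATF core were printed.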

Additional observations from a re-analysis of the deposited data

Results flagged for a closer look

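Slc7a11, the cystine importer of the amino acid transporter list, differed between the alleles: the D29H effect minus the R554Q effect was -1.69 on the log2 scale (SE 0.3, adjusted p = 0.0436 by edgeR over 14794 genes). The R554Q libraries were higher than wild type in 3 of 3 (2.35, adjusted p = 2.28e-08), and D29H against knockout gave 0.65 (adjusted p = 0.0547), with 9.85, 10.8 and 9.90 CPM against 5.07, 4.82 and 10.2 CPM. Without knockout replicate 3, the one at 10.2 CPM, the D29H value was 1.04 (adjusted p = 2.48e-05) and the difference between the alleles -1.30 (adjusted p = 0.0489). Over the fits that each left out a library the difference ranged from -1.88 to -1.30 (adjusted p 0.0262 to 0.208). The call was not held without D29H replicate 2 or 3, R554Q replicate 1 or 3, or any 1 of the 3 wild-type libraries, where 0 pathway genes were called, nor with a replicate block or a mean count of at least 50.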

How the results depend on the processing

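Directions held for the 4 members called lower in R554Q under every alternative tried. The 17 sign changes all concerned values that passed no test. For D29H against knockout they were Ddit4 (range without single libraries -0.016 to 0.15) at -0.013 without D29H replicate 1, -0.016 without D29H replicate 3 and -0.012 without knockout replicate 1, and Atf5 (range -0.078 to 0.013) at 0.013 without D29H replicate 2. For the difference between the alleles they were Asns (range -0.036 to 0.22) at -0.036 without D29H replicate 1, and Trib3 (range -0.12 to 0.080) at 0.0022 with a mean count of at least 50 and at 0.080 without D29H replicate 2, 0.043 without knockout replicate 2, 0.051 without R554Q replicate 1, 0.014 without R554Q replicate 3 and 0.015 without wild-type replicate 1. With offsets for GC content and length the difference was 0.092 for Trib3, 0.033 for Sesn2 and 0.0064 for Slc7a5, and with the replicate block and the offsets 0.093, 0.032 and 0.0054.

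In D29H against knockout 1 member, Slc7a5, was called with no filter on low counts, with DESeq2, with the offsets and with all 12 libraries in 1 fit (adjusted p of 0.0149 to 0.0404), and 0 to 3 members were called when single libraries were left out. The 3 pathway calls became 9 with no filter, 5 with DESeq2, 5 with the replicate block, 6 with all 12 libraries and 0 at a threshold of 0.01, and 0 to 16 when single libraries were left out. All genes called numbered 682, 1195 with no filter and 82 to 2192 when single libraries were left out. In R554Q against wild type the 4 member calls became 2 with the replicate block, 1 at 0.01 and 0 to 7 when single libraries were left out, and the 15 pathway calls became 6 at 0.01 and 6 to 28. All genes called numbered 872, 1502 with no filter, 484 with the replicate block, 512 with the offsets and 238 to 2872 when single libraries were left out. For the difference between the alleles the 1 pathway call became 0 with a mean count of at least 50, with the replicate block and at 0.01, and 0 or 1 when single libraries were left out; all genes called numbered 4, and 65 with DESeq2, 32 with no filter and 0 with the replicate block. Between D29H and R554Q the 3 member calls became 1 at 0.01 and 1 to 3 when single libraries were left out. All genes called there numbered 3351, 1695 at 0.01 and 2046 to 3958 when single libraries were left out. With 1 library left out, an arm has 2 libraries and fewer degrees of freedom, and no cause of these changes was tested.

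Whether the replicate numbers pair the samples is not stated by the labels. The labels give no shared animal or day, and same-numbered libraries had correlations of their deviations from the group means of -0.1, -0.0718 and -0.0242 in the Nrf2 groups and 0.0324, -0.174 and -0.0243 in the Keap1 groups. With the replicate block the Atf4 and Ddit3 calls in R554Q against wild type had adjusted p-values of 0.0612 and 0.0544, and Asns and Atf3 of 0.0207 and 0.0346. In the allele comparisons, R554Q replicate 1 was the only library that correlated best with its own number. Deviations within groups of 3 libraries cannot exclude a pairing.

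Within-group deviations correlated across genes with GC content at r from -0.312 to 0.241, with wild-type replicates 2 and 3 at the ends and R554Q replicate 3 at -0.273. The member differences were small, and Atf3 rested on 55 to 147 reads per library, which limits the precision of its values.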
